A study of Drosophila melanogaster with 12 samples.

Results

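Ovaries of su(Hw)Pb/2 mutant females were compared with ovaries of the wild-type strain BL15598, 3 arrays against 3, out of the 12 arrays and 4 genotypes of the study. The 6 arrays were picked by their genotype labels, and the comparison was chosen with earlier results of these data known. Of 11983 genes with a probe set of their own on the Drosophila array, 5987 had a log2 signal over 5 on at least 3 of these 6 arrays and were tested. All flies were virgin females aged 4 to 6 hours after eclosion, and each replicate was RNA from about 100 pairs of ovaries. The labels state that such ovaries hold egg chambers of stages 1 to 8 and that egg chambers without Su(Hw) die by apoptosis at stage 9, so the comparison asks how the transcriptome differs before that death.

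The su(Hw)Pb/2 females carried the e04061 allele of su(Hw) over the allele named 2, on an X chromosome marked with alleles of y, w, ct and f (y2, w67c23, ct6 and f1). BL15598 females carried y1, the same w allele and a P{EPgy2} insertion in CG6499 (now named Amt), and no su(Hw) allele is named for them. The second mutant, su(Hw)A2663/v, is named for an allele v, while its genotype label gives A2663 over the allele named 2, and this disagreement was not resolved. It had the X-linked markers of su(Hw)Pb/2 and the P{EPgy2} insertion of BL15598. Canton S is a standard wild-type strain with no marker named in its label. These 2 further groups, with 3 arrays each, are quoted below beside the genes they bear on. The su(Hw)Pb/2 and BL15598 stocks thus differ in their X chromosome and in the P{EPgy2} insertion as well as in su(Hw), and these differences cannot be told apart within this pair of groups.

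Su(Hw), suppressor of Hairy-wing, is a zinc-finger protein that binds DNA at many genomic sites, among them the insulator inside the gypsy retrotransposon. Females without it are sterile, and in the ovary the protein is known as a repressor of genes that are normally used by neurons. Rbp9, an RNA-binding protein of the ELAV family present in neurons and in dividing germ cells of the ovary, is a known gene of this kind. The y2, ct6 and f1 alleles are mutations caused by gypsy insertions, and their visible effects weaken when Su(Hw) is lost.

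su(Hw) itself was lost from the mutant arrays. Its log2 signal was 9.03, 8.78 and 8.86 in BL15598 and 2.72, 2.66 and 3.42 in su(Hw)Pb/2. All 3 mutant arrays lay under log2 5, the level taken as the floor of reliable signal, so the difference is a lower bound: the transcript was at least 14.8-fold lower in the mutant (difference in log2 signal -5.95 ± 0.19 SE, adjusted p = 1.73e-11). The mean in su(Hw)A2663/v was 2.56, and the difference between the 2 mutants did not pass the test (adjusted p = 0.257). An exact two-sided permutation test over the 6 arrays gave p = 0.1, which is the smallest value that 20 possible splits allow.

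Among the other genes of the genotype labels, f, which encodes an actin-bundling protein of bristles, rose. It read 5.88, 3.70 and 4.22 in BL15598 and 8.97, 8.76 and 8.44 in su(Hw)Pb/2, a difference of 4.12 ± 0.38 (adjusted p = 1.44e-06). With values under the floor raised to it, the difference was 3.43, since 2 of the 3 wild-type arrays were under log2 5. The mean was 8.18 in su(Hw)A2663/v, which also carries f1, and 4.51 in Canton S, so the f1 allele and the loss of Su(Hw) go together in these arrays and cannot be told apart. ct, which encodes a homeodomain protein of follicle cells and sense organs, differed by -0.61 (adjusted p = 0.0424), which is under 2-fold. y and Amt were under the floor on all 6 arrays and were not tested.

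Most genes changed under 2-fold between the 2 genotypes, and many of these smaller changes also passed the test. A gene was called when its adjusted p was under 0.05 and its change at least 2-fold. By this rule 241 of 5987 genes (4.03%) were higher in su(Hw)Pb/2 and 184 (3.07%) were lower. At adjusted p under 0.05 with no minimum size, 1061 genes were higher and 1524 lower, so the number called depends on the 2-fold limit. The change was under 2-fold in 92.6% of tested genes, the median difference in log2 signal was -0.057, and the middle 50% of genes lay between -0.29 and 0.20. The 3 mutant arrays all lay above the 3 wild-type arrays for 240 of the 241 genes called higher, against 21.0% of all tested genes. They all lay below for 183 of the 184 called lower, against 31.9% of all tested genes. The genes were called on these same arrays, so this lack of overlap mostly follows from the rule and is only a description. The same holds wherever a called gene is said below not to overlap.

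Many of the genes called higher had no reliable signal in the wild type. Of the 241, 83 were under the floor on all 3 BL15598 arrays and 128 were over it on all 6 arrays. Of the 184 called lower, 39 were under the floor on all 3 mutant arrays and 124 were over it on all 6. With values under the floor raised to it, 69 genes were over 4-fold higher and 21 over 8-fold higher, against 26 and 9 genes lower by as much.

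**Figure D1:**
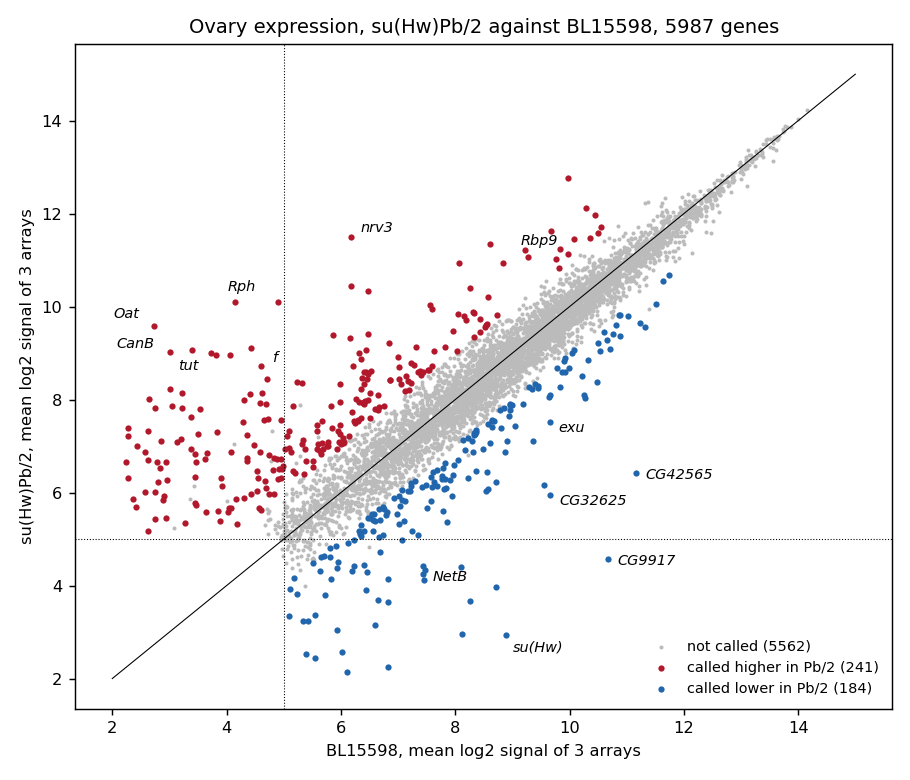
Mean log2 signal of each of the 5987 tested genes over the 3 BL15598 arrays (horizontal) and the 3 su(Hw)Pb/2 arrays (vertical), with genes called higher in red (241), genes called lower in blue (184), the line of equality, and dotted lines at the floor of log2 5. Many red points lie left of the vertical dotted line, where the wild-type mean is under the floor, while most genes follow the line of equality.

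Within a genotype the arrays correlated at 0.979 to 0.988 (su(Hw)Pb/2) and 0.989 to 0.994 (BL15598), and between the genotypes at 0.918 to 0.930. On every array between 37.4% and 38.4% of probe sets read over the floor. The tissue label was met by the germ line markers, of which 4 of 4 were over the floor on all 6 arrays. Follicle cell markers were over it in 4 of 7 cases, and tj and slbo stayed at or under 3.14. Markers of ovarian and oviduct muscle, which is part of the dissected organ, were over the floor in 14 of 17 cases. Of 24 testis markers 21 were under it on every array. Digestive enzyme genes showed a signal that differed among replicates of 1 genotype: 10 and 14 of 36 such genes were over the floor in su(Hw)Pb/2 replicates 1 and 2, against 2 in replicate 3 and 3, 5 and 2 in the BL15598 arrays. On the log2 scale fat body markers summed to 11.86 to 12.03 in BL15598 and 12.24 to 12.41 in su(Hw)Pb/2. Trachea and epithelial markers gave 8.08 to 8.54 and 8.70 to 9.16, and muscle markers 14.54 to 14.69 and 14.73 to 14.83. Testis markers went the other way, at 7.96 to 8.10 and 7.77 to 7.86. No tested gene of the fat body, trachea, muscle and testis lists was called. The GAPDH control has probe sets at both ends of its transcript, and their log2 difference (3′ end less 5′ end), a measure of RNA integrity and labelling, was 1.67 to 2.00 in BL15598 and 2.27 to 2.54 in su(Hw)Pb/2. That of eIF-4a was 2.07 to 2.34 and 2.98 to 3.30. For actin the ranges were 0.94 to 1.21 and 1.21 to 1.43, and for 18S, where they overlap, 0.83 to 1.33 and 0.69 to 1.501. The part of these differences in the results was not tested. RNA came from whole ovaries, so fewer cells of a type and less RNA per cell cannot be told apart for any gene described here.

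Several of the largest rises were in genes with known neural roles. Rph encodes rabphilin, a Rab effector of synaptic vesicles. Its log2 signal was 4.09, 4.71 and 3.63 in BL15598 and 9.81, 10.33 and 10.18 in su(Hw)Pb/2. All wild-type arrays were under the floor and all mutant arrays far above it, so the rise was at least 34.5-fold (difference 5.96 ± 0.23, adjusted p = 1.10e-10). CanB, the regulatory subunit of the calcium-dependent phosphatase calcineurin, read 2.98, 3.32 and 2.76 against 8.93, 9.06 and 9.07. This was a rise of at least 16.3-fold from a wild-type signal at background (adjusted p = 1.17e-12). tipE, an auxiliary subunit of the voltage-gated sodium channel, went from 4.20, 3.60 and 3.64 to 8.64, 9.28 and 8.97, at least 15.6-fold (adjusted p = 1.71e-10).

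nrv3 had the largest rise among genes measured over the floor on all 6 arrays. It encodes a β subunit of the sodium-potassium pump that is known from the nervous system. The BL15598 arrays read 7.15, 5.75 and 5.65 and the su(Hw)Pb/2 arrays 11.33, 11.77 and 11.36, a difference of 5.31 ± 0.38 or 39.6-fold (adjusted p = 1.09e-07). The 3 mutant arrays were close to each other, whereas the first wild-type array was above the other two. BL15598 was called lower than Canton S for nrv3, by -1.15, and the rise against Canton S was 4.16. For Rph, CanB, tipE and nrv3, su(Hw)A2663/v reached means of 10.23, 9.12, 8.97 and 11.54. The difference between the 2 mutants was between -0.13 and 0.00 in these 4 genes and did not pass the test in any of them.

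Genes of synapses and of ion channels were mostly not expressed in either genotype. The counts in this and the following gene lists stand beside 4.03% called higher and 3.07% called lower over all tested genes. Of 29 genes on the array for synaptic vesicles and active zones, 10 were tested, and 2 rose and 1 fell (median difference of those tested -0.08). Besides Rph the riser was Nlg2, a neuroligin that joins the synaptic membranes. It read 3.38, 3.01 and 3.00 in BL15598 and 7.25, 6.92 and 7.10 in the mutant, which is at least 4.25-fold (adjusted p = 2.24e-09). The other Nlg2 probe sets stayed under the floor in both genotypes. The faller was cac, the pore-forming subunit of the presynaptic calcium channel, at 5.27, 5.06 and 5.65 against 3.23, 3.27 and 3.22. Its wild-type signal was hardly over the floor, so the fall is bounded at only 1.26-fold and is no longer called with values raised to the floor (adjusted p = 3.75e-06 as deposited). Of 39 voltage-gated and calcium-activated channel genes 9 were tested, and 3 rose and 1, again cac, fell, with a median of 0.66.

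Both potassium channel genes that rose already had signal in the wild type or near it. sei, an ERG-type potassium channel, was 7.62, 7.51 and 7.67 in BL15598 and 10.09, 10.16 and 9.60 in su(Hw)Pb/2, a 5.10-fold rise (difference 2.35 ± 0.15, adjusted p = 3.73e-08). SK, a calcium-activated potassium channel, was 5.26, 4.50 and 5.71 against 7.71, 8.23 and 7.63 (difference 2.70 ± 0.26, adjusted p = 2.14e-06). A second SK probe set, under the floor in BL15598, was higher by at least 2.04 on the log2 scale in the mutant, and 2 more stayed at background on all 6 arrays. The groups did not overlap for sei or for SK. BL15598 itself was lower than Canton S for both genes, by -1.32 for sei and -1.40 for SK, so the rise against Canton S was smaller, at 1.03 and 1.30.

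Most transmitter genes were under the floor in both genotypes. The array holds 51 of them, of which 4 were tested and 3 rose. Ace, the acetylcholinesterase that ends cholinergic transmission, rose from 2.68, 2.89 and 2.78 to 6.63, 6.85 and 6.50, at least 3.15-fold (adjusted p = 7.81e-08). Its Canton S mean was 4.90, and BL15598 was called lower than Canton S by -2.12. Against Canton S the mutant was higher by 1.75. Tdc1, a tyrosine decarboxylase of tyramine synthesis, rose from 5.16, 4.88 and 5.04 to 6.78, 6.74 and 7.28 (difference 1.90 ± 0.17, adjusted p = 1.37e-06). The Canton S mean of Tdc1 was 6.83, close to the mutant. GABA-B-R3, a metabotropic GABA receptor subunit, was 5.31, 5.56 and 5.48 in the mutant after 2.70, 2.97 and 3.15 in BL15598, but at least 1.36-fold is all that the floor allows. It is not called with values raised to the floor, and it was higher still in Canton S, at 6.89. Members that pass the filter only through the genotype in which they are high had to differ, so these counts describe the lists and do not test them.

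Of 35 neuropeptide genes 7 were tested and 2 rose. ETH, the hormone that triggers ecdysis, read 6.53, 5.83 and 6.24 against 7.91, 7.18 and 8.09 (difference 1.53 ± 0.21). ITP, an antidiuretic ion transport peptide, read 5.78, 5.84 and 5.93 against 7.27, 7.45 and 7.43 (1.53 ± 0.20). Against Canton S the difference was 0.83 for ETH and 0.85 for ITP, under 2-fold. In both genes every mutant array was above every BL15598 array, and the difference between the mutants did not pass the test in either (adjusted p = 0.821 and 0.792). The group of calcineurin and sodium-potassium pump genes had 7 of 11 members tested, and CanB and nrv3 were the 2 that rose, beside a group median of -0.01.

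Axon guidance and adhesion genes moved in both directions. Of 56 on the array 23 were tested, 3 rose and 3 fell, and the median was 0.18. Sema5c, a semaphorin, rose from 7.82, 7.92 and 8.14 to 9.15, 9.94 and 9.34 (difference 1.51 ± 0.19). CadN, the neural cadherin, rose from under the floor by at least 2.04-fold, and Sema1a by 1.04 on the log2 scale. For both BL15598 was called lower than Canton S, by -1.04 and -1.58, and su(Hw)Pb/2 was not called against Canton S (0.45 and -0.54). NetB, a netrin that guides axons, fell from 7.60, 7.44 and 7.29 to 4.40, 4.10 and 4.24, at least 5.43-fold (adjusted p = 1.48e-09). Ephrin, a ligand of Eph receptors, fell by 1.06 and caps, a leucine-rich repeat adhesion protein, fell by 1.05. The calls of Sema1a, Ephrin and caps each ended when single arrays were left out: Sema1a without mutant replicate 1 or 2 or BL15598 replicate 1, Ephrin without mutant replicate 1 or 3, and caps without mutant replicate 3 or BL15598 replicate 1 or 3.

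**Figure D2:**
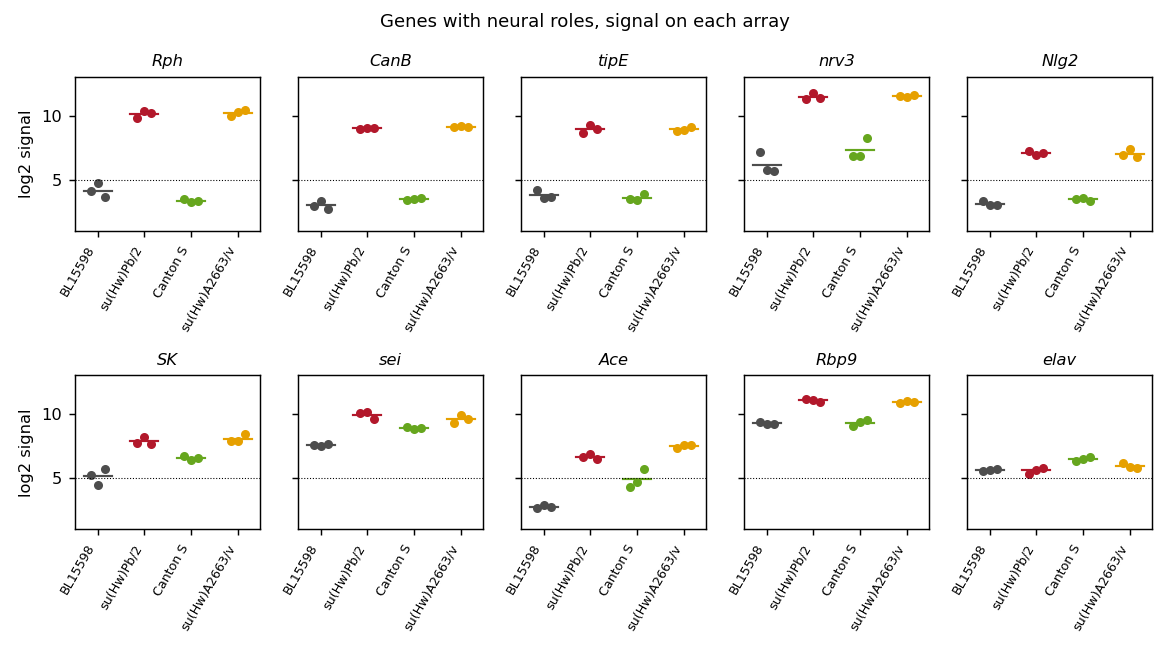
Log2 signal on each array (points) and group mean (bars) of 10 genes with neural roles in the 4 genotypes, 3 arrays each, with the floor of log2 5 dotted. Rph, CanB, tipE and Nlg2 are under the floor in both wild-type strains and over it in both mutants, while elav lies between 5.34 and 5.81 in BL15598 and su(Hw)Pb/2.

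The ELAV family, which gives neurons their best known RNA-binding markers, changed in 1 of its 3 members. Rbp9 was already well expressed in the wild type, at 9.38, 9.18 and 9.25, and rose to 11.17, 11.11 and 10.92, which is 3.47-fold (difference 1.79 ± 0.10, adjusted p = 1.14e-08). The 3 arrays of each genotype lay within 0.3 log2 of each other, and the genotypes were far apart. A second Rbp9 probe set stayed at background in both genotypes, and with the mean of the 2 probe sets in place of the brighter one the gene is not called. elav, the pan-neuronal marker, read 5.53, 5.61 and 5.73 against 5.34, 5.65 and 5.81, with a difference of -0.02 ± 0.17 (adjusted p = 0.924). fne was under the floor on all 6 arrays.

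Most defining markers of neurons and glia were at background in both genotypes. Of 15 markers of neurons and glia on the array, 11 were under the floor on all 6 arrays, with no value over 3.59. They include the synaptic genes nSyb, brp, Syn and Snap25, the glial gene repo, and the transmitter genes ChAT, VGlut and Gad1. The other 4 were over the floor on every array, and 2 of them rose. Gs2, a glutamine synthetase, read 8.20, 8.13 and 8.13 in BL15598 and 9.96, 9.95 and 9.46 in the mutant (difference 1.64 ± 0.17, adjusted p = 3.90e-06). moody, a G protein-coupled receptor of the blood-brain barrier glia, read 6.28, 5.93 and 6.50 against 7.58, 7.56 and 7.51 (1.31 ± 0.18, adjusted p = 5.39e-05). Canton S had means of 9.44 for Gs2 and 7.18 for moody, near the mutant levels. The summed signal of the 15 markers on the log2 scale was 10.3 to 10.4 in BL15598 and 10.9 to 11.2 in su(Hw)Pb/2. In Canton S it was 10.9 to 11.1, as high as in the mutant. Nrx-IV and Gs2 were the brightest members, so the sum mostly reads these 2 genes.

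A few more genes with neural roles rose and belong to none of these lists; they are named here because their values were seen. Hesr, a bHLH repressor of the Hes type, read 3.22, 3.77 and 2.66 in BL15598 and 8.79, 8.02 and 7.61 in su(Hw)Pb/2, at least 8.82-fold. IA-2, a protein of dense-core vesicles, rose at least 4.43-fold, X11Lbeta, an adaptor of the X11 family, by 2.60 on the log2 scale, and dpr19, an immunoglobulin-domain protein, by 2.52. Hesr was higher still in su(Hw)A2663/v, with a mean of 10.04, and the mutants differed in this gene by -1.90 (adjusted p = 0.00268).

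The remaining genes with the largest rises were of mixed kind, and many have no known function. Among those over the floor on all 6 arrays they were CG42807 (difference 4.26 ± 0.57), CG14292 (3.85 ± 1.07), cdi (3.53 ± 0.16), CG12643 (3.15 ± 0.25) and CG8534 (2.93 ± 0.69). cdi, a serine/threonine kinase, was 6.25, 5.69 and 5.62 against 9.35, 9.57 and 9.24. It was as high in su(Hw)A2663/v, with a mean of 9.43. CG14292 and CG8534 had the widest errors of the group and lost their calls when su(Hw)Pb/2 replicates 1 and 2, the arrays with digestive enzyme signal, were left out together. The Canton S arrays varied widely for 3 of these genes: CG42807 read 7.51, 6.21 and 9.17, CG14292 7.38, 3.74 and 9.54, and CG8534 7.36, 4.37 and 7.74. Neither CG14292 nor CG8534 was called in su(Hw)A2663/v against BL15598 (adjusted p = 0.109 and 0.0982). CG32017, a gene with no BL15598 array over 3.86, rose at least 15.9-fold.

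Oat, tut and mirr rose as well, and in these genes BL15598 stood apart from Canton S. Oat, ornithine aminotransferase, read 3.08, 2.37 and 2.72 in BL15598 and 9.79, 9.49 and 9.50 in su(Hw)Pb/2, at least 24.1-fold (adjusted p = 8.94e-13). Its Canton S mean was 10.87, which is above both mutants. tut, known from the male germ line as a partner of Bam, read 3.35, 3.47 and 3.36 against 9.13, 9.10 and 8.99, at least 16.8-fold, and its Canton S mean was 8.61. mirr, an Iroquois transcription factor of dorsal follicle cells, read 4.32, 4.53 and 4.38 against 8.02, 8.24 and 8.09, at least 8.66-fold, with 8.40 in Canton S. A second mirr probe set stayed under the floor in both genotypes, with means of 3.93 and 3.99. For these 3 genes the BL15598 minus Canton S difference was -8.14, -5.21 and -3.99, each past the threshold of the same fit. CG17470 and CR43790 were at least 4.68-fold and at least 5.88-fold higher in su(Hw)Pb/2 than in BL15598, and their su(Hw)Pb/2 and Canton S means differed by 0.44 and 0.15. The su(Hw)A2663/v means were low too, at 4.70 and 5.38, and for CR43790 the difference of that mutant from BL15598 was not called.

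The falls also held genes in which BL15598 was well above Canton S. Reepl1, of the family of receptor expression-enhancing proteins, was 6.96, 6.55 and 6.98 in BL15598 and 2.25, 2.25 and 2.23 in su(Hw)Pb/2, and its means in Canton S and su(Hw)A2663/v were both 2.25. alpha-Est7, a carboxylesterase, fell at least 5.56-fold and CG42404 at least 1.91-fold, and the means of both were under the floor in Canton S too. In su(Hw)A2663/v they were over it, at 6.15 for alpha-Est7 and 5.98 for CG42404, the latter close to the BL15598 mean of 5.94. CG42404 is not called with values raised to the floor. ImpL2, a secreted protein that binds insulin-like peptides, fell from 8.32, 8.63 and 8.76 to 5.74, 6.43 and 6.06 (difference -2.49 ± 0.26), against 6.28 in Canton S. Arpc1, a subunit of the actin-nucleating Arp2/3 complex, fell from 8.43, 8.54 and 8.62 to 6.42, 6.01 and 5.70, while Canton S was lower than both, at 2.70. CG8539 was likewise high in BL15598 (8.14, 8.15 and 8.02), lower in su(Hw)Pb/2 (4.05, 4.44 and 4.70) and at 2.55 in Canton S. These genes separate BL15598 from Canton S, and their difference from the mutant cannot be told apart from a difference between strains.

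CG42565, GstZ1, CG33099 and CR44101 were called lower in su(Hw)Pb/2 than in either wild type, and lower in su(Hw)A2663/v than in BL15598. CG42565 had the largest fall among genes over the floor on all arrays, from 11.36, 11.11 and 11.05 to 6.55, 6.09 and 6.62, which is 26.9-fold (difference -4.75 ± 0.17, adjusted p = 5.19e-11). Its mean was 10.85 in Canton S and 7.79 in su(Hw)A2663/v. GstZ1, a zeta-class glutathione transferase, fell from 9.68, 9.59 and 9.41 to 5.73, 6.33 and 6.44 (difference -3.39 ± 0.19), with 6.16 in su(Hw)A2663/v. CG33099 fell at least 9.53-fold and was under the floor in both mutants. CG13992 fell by 2.50 on the log2 scale against BL15598 and was at 7.08 in Canton S, from which the mutant differed by -0.86, under 2-fold. The non-coding gene CR44101 fell at least 8.73-fold, from 8.27, 8.23 and 7.88 to 2.92, 3.03 and 2.94, and was intermediate in su(Hw)A2663/v (5.94) and in Canton S (5.66).

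The largest fall of all was far larger in su(Hw)Pb/2 than in the other mutant. CG9917 read 10.59, 10.74 and 10.71 in BL15598 and 4.51, 4.68 and 4.51 in su(Hw)Pb/2, at least 51.2-fold lower (adjusted p = 1.36e-14). The su(Hw)A2663/v mean was 10.08 and the Canton S mean 10.58. Zip102B, a zinc transporter of the ZIP family, read 8.72, 8.77 and 8.66 against 3.79, 3.91 and 4.19, at least 13.2-fold lower, with 8.12 in su(Hw)A2663/v and 9.06 in Canton S. CG32625 read 9.78, 9.65 and 9.56 against 5.94, 5.99 and 5.94, which is 13.1-fold lower, with 10.09 in su(Hw)A2663/v and 9.78 in Canton S. For these 3 genes the mutants differed by -5.51, -4.16 and -4.14 (adjusted p = 5.64e-14, 4.58e-11 and 5.43e-13). The 3 su(Hw)Pb/2 arrays lay below the other 9 arrays in each of them. Against BL15598, su(Hw)A2663/v differed by -0.60, -0.60 and 0.43 (adjusted p = 0.000308, 0.00238 and 0.00205), each under 2-fold.

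The test between the 2 mutants, in which the BL15598 arrays cancel, called 57 genes higher in su(Hw)Pb/2 than in su(Hw)A2663/v (0.952% of 5987) and 53 lower (0.885%). Of the 425 genes called against BL15598, 71 also differed between the mutants. Among the genes called higher in su(Hw)Pb/2, 32 were higher and 3 lower than in su(Hw)A2663/v, and among those called lower, 30 were lower and 6 higher. The 2 comparisons share the su(Hw)Pb/2 arrays, so this split by direction is a description. NetB is one such gene: it fell in both mutants, to a mean of 6.43 in su(Hw)A2663/v, and was lower by 2.19 in su(Hw)Pb/2 (adjusted p = 5.94e-07).

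**Figure D3:**
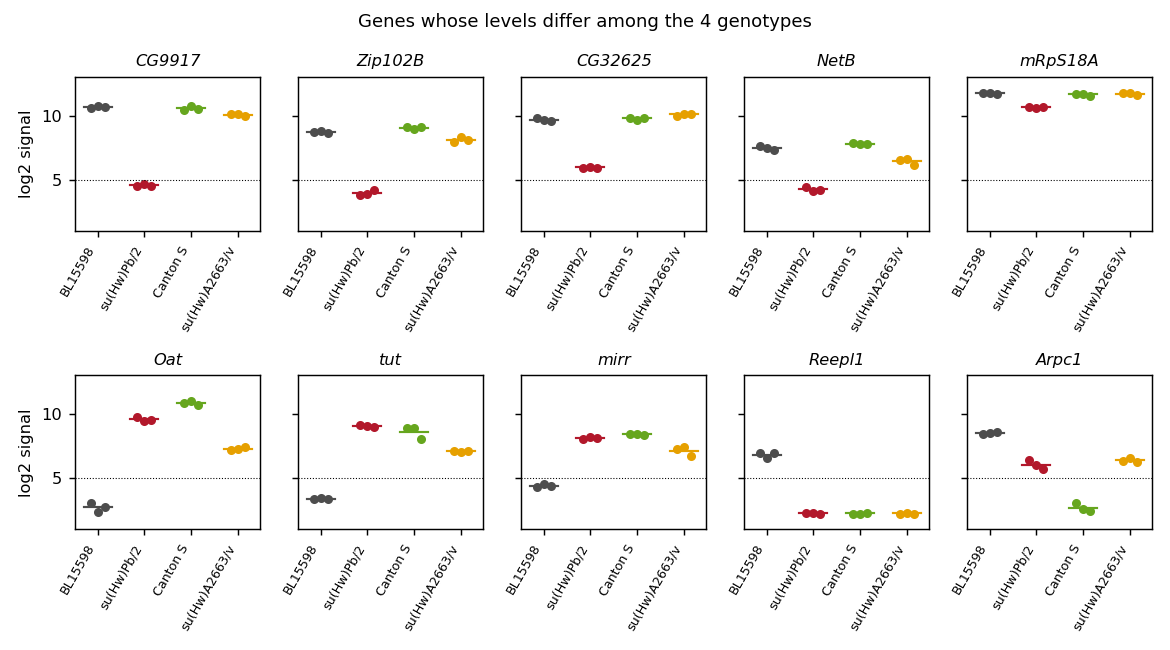
Log2 signal on each array (points) and group mean (bars) of 10 genes in the 4 genotypes, 3 arrays each, with the floor of log2 5 dotted. In the upper row su(Hw)Pb/2 is the lowest genotype, and in the lower row Oat, tut and mirr are low and Reepl1 high only in BL15598 among the 4 genotypes, while Arpc1 is lowest in Canton S.

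Genes of yolk, vitelline membrane and eggshell were the list with the most falls. Of 38 on the array 17 were tested, none rose, 6 fell, and the median difference was -1.003, against -0.057 for all tested genes. By the same rule 4.03% of all tested genes rose and 3.07% fell. Many genes of this list, among them those of the vitelline membrane and eggshell, are expressed by follicle cells and switch on as egg chambers mature. The list also holds genes of other kinds, such as ea. wbl, an endoplasmic reticulum protein that follicle cells need for the dorsoventral axis, read 6.69, 7.04 and 6.74 in BL15598 and 3.32, 3.67 and 3.96 in the mutant, at least 3.53-fold lower (adjusted p = 1.01e-06). Pxt, a peroxidase needed for follicle maturation, fell from 11.28, 11.11 and 11.33 to 9.42, 9.87 and 9.63 (difference -1.60 ± 0.11, adjusted p = 7.13e-08). ea, a serine protease of the dorsoventral pathway, fell from 7.71, 7.68 and 7.67 to 6.07, 6.33 and 6.04 (difference -1.54 ± 0.14). In all 3 genes the genotypes did not overlap. Against Canton S, su(Hw)Pb/2 was called lower for wbl (-1.45) and Pxt (-1.19) and not for ea (-0.57), psd (0.35), Yp3 (-0.49) or tsl (-0.35). BL15598 was called higher than Canton S for wbl, psd and tsl, by 1.72, 1.83 and 1.82.

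The other eggshell genes varied more among the mutant arrays. psd, a component of the vitelline membrane, read 5.35, 6.41 and 7.12 in su(Hw)Pb/2 against 7.81, 7.78 and 7.73 in BL15598 (difference -1.48 ± 0.34, adjusted p = 0.00339). Yp3, a yolk protein, read 7.74, 8.97 and 9.08 against 9.77, 10.09 and 9.75 (-1.27 ± 0.34, adjusted p = 0.00904) and was not called without su(Hw)Pb/2 replicate 1. tsl, which patterns the embryo's ends, was under the floor in the mutant and fell at least 1.47-fold, which is no longer a call with values raised to the floor. Neither psd nor Yp3 was called when mutant replicates 1 and 2 were left out together.

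Replicate 1 of su(Hw)Pb/2 was the lowest mutant array for psd, Yp3 and the abundant vitelline membrane genes. Vm34Ca read 7.92, 10.41 and 11.51 in the mutant and 11.05, 11.65 and 11.50 in BL15598, and Vm26Aa read 3.84, 7.63 and 8.94 against 7.51, 8.67 and 8.49. Neither passed the test (adjusted p = 0.161 and 0.235). The third mutant array was at the wild-type level for both genes. Yp1, another yolk protein, had a difference of -0.32 ± 0.30 (adjusted p = 0.411). Compared with su(Hw)A2663/v, su(Hw)Pb/2 was higher in 6 genes of this list, by 4.79 for Vm34Ca and 2.45 for psd.

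In the germ line and oocyte list 42 of 43 genes were tested, 1 rose and 2 fell, with a median of -0.08. The riser was tut, described above. exu, which is needed to localise bicoid mRNA in the oocyte, fell from 9.60, 9.64 and 9.72 to 7.52, 7.45 and 7.56, a 4.42-fold fall with no overlap (difference -2.14 ± 0.15, adjusted p = 7.81e-08). It was as low in su(Hw)A2663/v (7.33), and a second, dim exu probe set did not move, so the mean of both probe sets gives no call. plu, a cell cycle regulator of the egg and early embryo, fell from 7.87, 7.99 and 7.66 to 5.95, 6.20 and 6.12 (difference -1.75 ± 0.22, adjusted p = 3.45e-05).

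mtrm, Mos and Cdc7 fell. mtrm encodes an oocyte inhibitor of Polo kinase and read 11.64, 11.65 and 11.60 in BL15598 and 10.66, 10.56 and 10.42 in the mutant (difference -1.08 ± 0.08, adjusted p = 1.33e-07). Mos, a kinase of oocyte maturation named here after its values were seen, fell from 8.34, 8.23 and 8.12 to 6.24, 6.34 and 6.34 (-1.92 ± 0.20). Cdc7, the kinase that fires replication origins, fell from 9.65, 9.63 and 9.72 to 7.83, 8.14 and 8.32 (-1.57 ± 0.11). The su(Hw)A2663/v means of these 3 genes were within 0.4 log2 of those of su(Hw)Pb/2. Against Canton S the su(Hw)Pb/2 difference was -0.82 for mtrm and -0.64 for Mos, both under 2-fold, and -1.37 for Cdc7, which was called. BL15598 was called higher than Canton S for Mos, by 1.28. mtrm was the single faller and mus101, a TopBP1 homologue that rose by 1.01, the single riser of 33 tested genes for DNA damage and meiosis. The mus101 call lies at the 2-fold limit and ended without mutant replicate 3, without BL15598 replicate 1 or without BL15598 replicate 2. Cdc7 was the single call of 44 cell cycle genes.

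**Figure D4:**
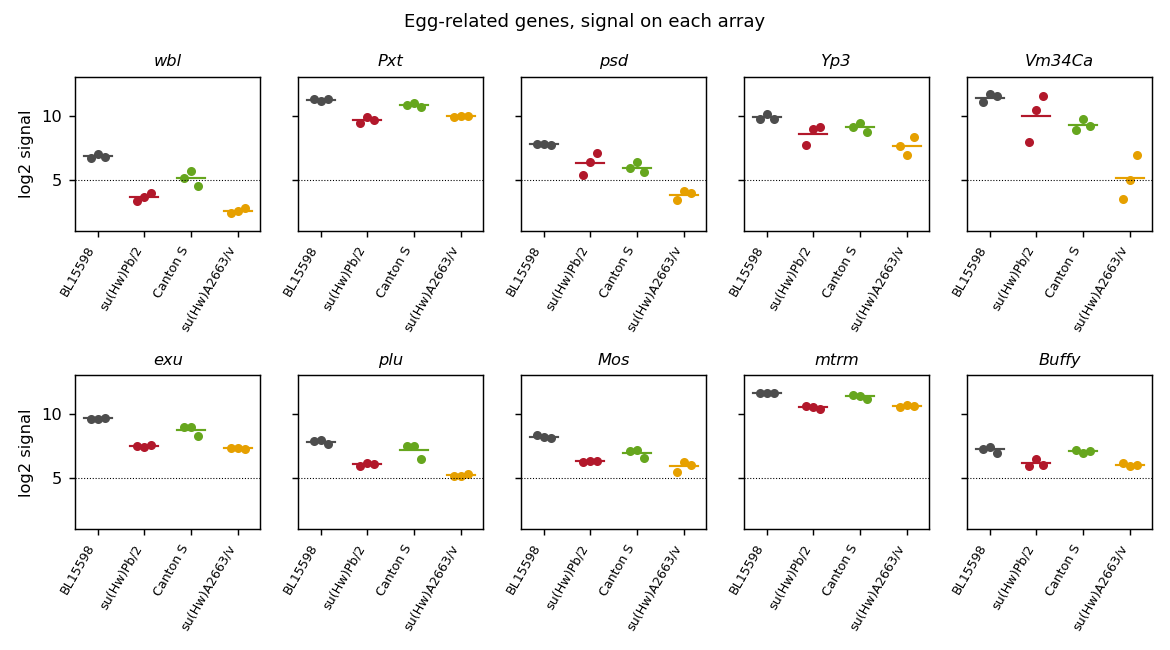
Log2 signal on each array (points) and group mean (bars) of 10 genes for eggshell, yolk, oocyte and cell death in the 4 genotypes, 3 arrays each, with the floor of log2 5 dotted. exu, plu, Mos, mtrm and Pxt are lower on every mutant array than on every BL15598 array, while Vm34Ca runs from 7.92 to 11.51 within su(Hw)Pb/2.

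The piRNA pathway, which silences transposons in the germ line, had 30 of 31 genes tested and no call by limma at 2-fold. At adjusted p under 0.05 with no minimum size, 13 of the 30 were higher and 2 lower, and the largest difference was 0.99. Over all genes 1061 were higher and 1524 lower by that looser rule. The egg chamber patterning list had 27 genes tested, with mirr its single call and a median of 0.21.

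Cell death genes gave 1 rise and 1 fall of 16 tested. Strica, a caspase, rose from 6.61, 6.28 and 6.34 to 8.33, 7.93 and 7.48 (2.83-fold, adjusted p = 2.41e-05), and its Canton S mean was 7.70, from which the mutant differed by 0.21 (not called). Buffy, a member of the Bcl-2 family, fell from 7.30, 7.42 and 6.99 to 5.95, 6.47 and 6.02 (-1.09 ± 0.16), a call that ended without mutant replicate 1 or without BL15598 replicate 2. The median of the list was -0.01.

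Of 16 tested heat shock and chaperone genes 2 rose and none fell by the 2-fold rule. At adjusted p under 0.05 with any size, 4 were higher and 4 lower, beside 1061 and 1524 of 5987 tested genes. stv, a BAG-domain co-chaperone, read 8.94, 8.88 and 8.69 against 10.63, 10.77 and 11.40 (difference 2.10 ± 0.28, adjusted p = 6.10e-05). Hsp68, a heat-inducible member of the Hsp70 family, read 9.86, 10.23 and 9.44 against 10.78, 11.11 and 11.83 (1.40 ± 0.29, adjusted p = 0.00185). In both the third mutant array was the highest, and the genotypes did not overlap. Hsp68 shares sequence with other Hsp70 genes, so its probe set may read more than 1 gene.

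Immune genes gave 3 rises and 1 fall of 15 tested, beside 4.03% and 3.07% of all tested genes. Tep4, a thioester-containing protein of haemolymph, rose from a mean of 8.33 ± 0.24 to 9.86 ± 0.12 (SD, n = 3 each), a difference of 1.53 ± 0.21, and by 0.67 over Canton S, which was not called. Bbd, bombardier, rose by 1.47 ± 0.31, and Mtk, the antimicrobial peptide metchnikowin, read 6.27, 6.25 and 5.28 in the mutant, at least 1.91-fold over a wild-type signal at background. PGRP-SB1, a secreted peptidoglycan recognition protein, fell from 6.75, 6.65 and 6.52 to 3.49, 3.13 and 4.46, at least 3.12-fold. Its mean was 7.13 in su(Hw)A2663/v and 4.48 in Canton S, from which su(Hw)Pb/2 did not differ by the test (-0.79) and BL15598 did (2.16). Bbd and PGRP-SB1 were not called without mutant replicates 1 and 2, and Mtk was not called with values raised to the floor. Of 22 markers of haemocytes and basement membrane, 10 were under the floor on all 6 arrays, among them Hml, He and eater. Pxn, the basement membrane peroxidase, rose from 4.78, 3.71 and 4.42 to 7.78, 7.96 and 8.23, at least 7.95-fold, and Glt rose by 1.40 on the log2 scale. The Canton S means were 6.49 for Pxn and 7.31 for Glt, the latter above the mutant mean of 7.07, and BL15598 was called lower than Canton S for both (-2.19 and -1.65).

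Detoxification and metabolic genes moved in both directions. Of 21 cytochrome P450 genes tested 3 rose and 5 fell, beside 4.03% and 3.07% of all tested genes. Cyp4g1, an enzyme of cuticular hydrocarbon synthesis, rose from 9.85, 9.22 and 9.94 to 11.63, 11.99 and 11.25 (1.95 ± 0.34), Cyp6d5 at least 3.68-fold and Cyp6a17 at least 1.81-fold. Cyp6d5 was high in mutant replicates 1 and 2 (7.46 and 7.67) and lower in replicate 3 (5.52), and was not called without the first 2. Cyp6a20 fell from 6.81, 6.62 and 6.35 to 3.29, 2.95 and 3.25, at least 3.02-fold. Cyp6a23, Cyp6a13, Cyp12b2 and Cyp18a1 fell by 1.64, 1.53, 1.40 and 1.02. Cyp12b2 was not called without mutant replicates 1 and 2. Cyp18a1, which inactivates ecdysone, was not called without mutant replicate 3 or without BL15598 replicate 3. Cyp6d5, Cyp6a13 and Cyp18a1 were not called against Canton S (1.79, -0.86 and -0.26), and Cyp6a17 was not called with values raised to the floor.

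Among 26 tested glutathione transferase and UDP-glycosyltransferase genes 2 rose and 3 fell, with a median of -0.41. GstT4 rose by 1.97 ± 0.25 and GstE10 by 1.11. GstE10 was far higher in Canton S (8.48) and in su(Hw)A2663/v (7.47) than in su(Hw)Pb/2 (5.68), which was called lower than Canton S by -2.80, as BL15598 was by -3.91. GstZ1, GstD3 and Ugt36D1 fell by 3.39, 1.32 and 1.13, and GstD3 (-0.57) and Ugt36D1 (-0.48) were not called against Canton S. GstE10 was not called without mutant replicate 2, without BL15598 replicate 2 or with values raised to the floor, and Ugt36D1 was not called without mutant replicate 1. Of 29 genes for ecdysone and lipid uptake 1 rose and 3 fell. Kr-h1, a transcription factor of the juvenile hormone response, rose by 1.13 ± 0.22, a call that ended without mutant replicate 3. AcCoAS, the acetyl-CoA synthetase, fell from 9.09, 9.12 and 8.94 to 7.25, 7.64 and 7.41 (-1.61 ± 0.18). Its Canton S mean was 7.80, from which su(Hw)Pb/2 differed by -0.37 (not called) and BL15598 by 1.24 (called). ImpL2 and Cyp18a1, described above, were the other two.

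Among 36 tested cytoplasmic ribosomal proteins RpS10a rose and RpS19b fell. Both are second copies of a ribosomal protein gene, and cross-hybridisation with the other copy was not tested. RpS19b read 7.61, 7.94 and 8.29 in BL15598 and 5.97, 5.56 and 6.27 in the mutant (-2.01 ± 0.20, adjusted p = 2.52e-06). RpS10a, at least 1.49-fold higher, was not called with values raised to the floor. The 25 tested insulator protein genes held no call other than su(Hw). In the chromatin list of 33 tested genes the calls were su(Hw) and the gene of p55, a histone-binding subunit of several chromatin complexes. The p55 gene fell from 10.97, 10.74 and 10.89 to 9.65, 9.88 and 9.94 (-1.04 ± 0.10), and that call ended without mutant replicate 1 or without BL15598 replicate 1.

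**Figure D5:**
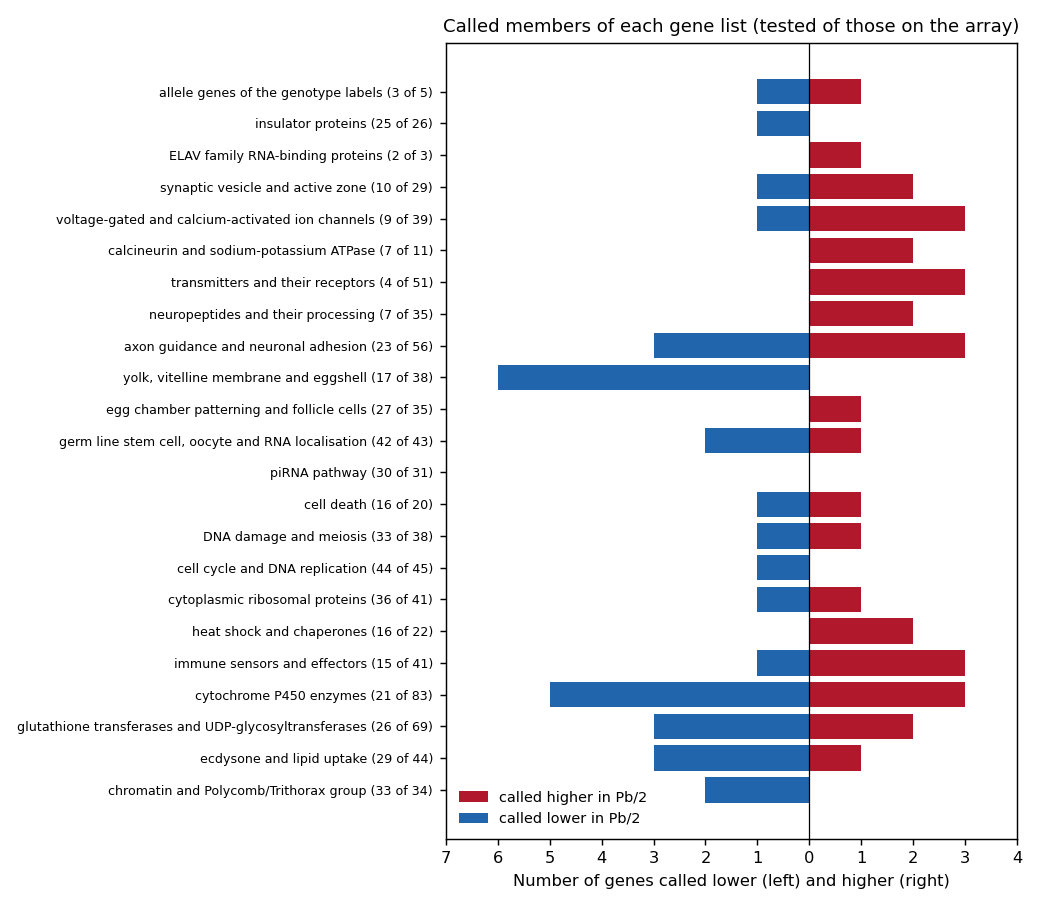
Number of genes called lower (left, blue) and higher (right, red) in su(Hw)Pb/2 than in BL15598 in each of 23 gene lists, with the number tested of those on the array in brackets. Yolk, vitelline membrane and eggshell genes have 6 falls and no rise, and the 30 tested piRNA genes have no call; over all genes 4.03% were called higher and 3.07% lower.

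Probe sets that name several genes, or none in the annotation used, were tested apart. Of 5122 such probe sets 894 passed the same filter, and 46 (5.15%) were called higher and 29 (3.24%) lower in su(Hw)Pb/2.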

How the data were processed

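RNA from 3 replicates of each genotype was hybridised to Affymetrix Drosophila arrays. The deposited values are log2 signals that the authors made with GCRMA in Partek 6.5, per the submitters' processing notes. No scanner file or promoter sequence was used here. Of 18952 probe sets, 13647 name a single gene by GEO's platform annotation, and symbols were updated through RefSeq for 13544. Each gene took its brightest such probe set. The other probe sets of f, CG42565, cac, X11Lbeta, IA-2, Pxn, caps and Cyp18a1 were under the floor on every su(Hw)Pb/2 and BL15598 array.

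A mean for each of the 4 genotypes was fitted to all 12 arrays with limma 3.58.1 (R 4.3.3, eBayes with a variance trend), so that all groups share 1 spread, and p-values were adjusted by Benjamini-Hochberg over the 5987 genes. A gene was called at adjusted p under 0.05 and a 2-fold change. Values under log2 5 were raised to 5 for "at least" folds. The labels call the replicates biological. The number of arrays limits the precision. The fit was tested on simulated data.

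Genes were named by a rule on the genotype labels, the largest changes, up to 3 called members per list and differences from the other strains. Further names are genes chosen after their values were seen: Pepck1, Pepck2, tko, MetRS-m, ProRS-m, mRpS18A, Mos, Hesr, X11Lbeta, IA-2, dpr19, Pxn, Glt, Gs2, moody, LManII, psd, Yp3, tsl, Vm26Aa, Vm34Ca, Yp1, Mtk, Cyp6a20, Cyp6a13, Cyp6a17, Cyp12b2, Cyp18a1, GstE10, Ugt36D1, CadN, Sema1a, caps, CG12998 and XRCC1. The comparison, its gene lists and tests were chosen with earlier results of these data known.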

Additional observations from a re-analysis of the deposited data

Results flagged for a closer look

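For 27 of the named genes, 24 of them also called against BL15598, the 2 mutants differed from BL15598 by different amounts, as tested by the difference between the mutants in the same limma fit (at least 2-fold, adjusted p under 0.05). su(Hw)Pb/2 was the lower mutant by -5.51 for CG9917, -4.16 for Zip102B, -4.14 for CG32625, -3.44 for PGRP-SB1, -2.98 for CR44101, -2.94 for CG42404, -2.37 for cac and -2.19 for NetB on the log2 scale. Smaller differences in the same direction were -1.90 for Hesr, -1.82 for alpha-Est7, -1.79 for GstE10, -1.51 for Cyp6a17, -1.49 for CG8539, -1.37 for CG42565, -1.32 for RpS19b and -1.10 for GstD3. LManII, an α-mannosidase of the gut marker list that fell by 2.26 against BL15598, and mRpS18A, a mitochondrial ribosomal protein, were lower by -1.08 and -1.03. su(Hw)Pb/2 was the higher mutant by 2.52 for CG17470, 2.45 for psd, 2.30 for Oat, 2.17 for CR43790, 1.98 for tut and 1.07 for wbl. It was also higher by 4.79 for Vm34Ca, 3.58 for Vm26Aa and 1.08 for Yp1, which were not called against BL15598. Digestive enzyme genes were over the floor in 14, 2 and 14 of 36 cases on the su(Hw)A2663/v arrays, and with the mean enzyme signal as a covariate 113 genes differed between the mutants, against 110 without it.

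Signal was also present in probe sets outside the gene-level comparison: 46 probe sets naming several genes or none were called higher in su(Hw)Pb/2 than in BL15598 and 29 lower.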

How the results depend on the processing

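The counts of 241 genes higher, 184 lower and 110 different between the mutants moved with the minimum size of a call: with no minimum change they were 1061, 1524 and 480, and at 1.5-fold 517, 554 and 282. In the other alternatives, among them filters, floors, normalisation, probe set choice and the enzyme signal as a covariate, they stayed within 1.5 times. Leaving out single su(Hw)Pb/2, BL15598 or su(Hw)A2663/v arrays, the last chosen after seeing the data, gave 228 to 262 higher, 177 to 193 lower and 91 to 117 different between the mutants, and su(Hw) differed by -6.19 to -5.81. The su(Hw) difference kept its direction and call in all 28 alternatives (-6.19 to -3.89). Of 101 named genes that were called, su(Hw) among them, 71 kept the call in every alternative in which they were tested. A gene left out by the filter of an alternative was not counted as lost there. Of 2784 gene-by-alternative results, which leave out su(Hw), 71 lost the call, none with a change of direction. Without mutant replicates 1 and 2 the counts were 264 and 190, of which 197 and 150 are among the 241 and 184, and 14 named genes were not called; with BL15598 replicate 2 also left out, an alternative chosen after seeing the data, the counts were 236 and 185 and Cyp4g1 was lost too. A lone array is assumed to vary like the other groups. Same-numbered arrays correlated at -0.14, 0.155 and 0.247. Mutant replicates 2 and 3 correlated best with their own number, and mutant replicate 1 with BL15598 replicate 2 (0.254). With 3 arrays per genotype these values cannot decide whether the numbers pair the samples. With the replicate block the counts were 242 higher and 186 lower, or 253 and 188 over the 6 arrays, and 114 between the mutants. Signals near the floor limit the size that can be given for genes absent from 1 genotype.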

Other observations

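Genes called higher had neighbours called higher more often than tested genes in general, a difference that was not tested. Of 237 genes called higher with a tested neighbour, 49 (20.7%) had a neighbour also called higher, against 463 of 5969 (7.76%) of all tested genes. For genes called lower the share was 16 of 182 (8.79%), against 5.96%. CanB lies between XRCC1 and SK among the tested genes in RefSeq's gene order, and all 3 were called higher, XRCC1 by 1.93 on the log2 scale, with 2 of the 3 BL15598 arrays under the floor; raising these to it gives 1.45. CG12998, next to f, read 3.96, 7.11 and 3.64 in BL15598 and 8.91, 11.52 and 9.84 in su(Hw)Pb/2 (adjusted p = 0.011), and its call ended with a stricter adjusted p, with no filter, with robust variance or without mutant replicates 1 and 2. The neighbours psd and CG13992 both fell. Overlapping transcripts read by both probe sets were not tested.

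Both phosphoenolpyruvate carboxykinase genes, whose enzymes start gluconeogenesis and which are neighbours, rose. Pepck1 read 6.93, 6.09 and 6.05 in BL15598 and 8.85, 8.96 and 8.82 in su(Hw)Pb/2 (difference 2.52 ± 0.40), and Pepck2 rose by 1.84 ± 0.23. tko, a protein of the small mitochondrial ribosomal subunit, fell from 10.46, 10.62 and 10.37 to 8.40, 8.16 and 8.55 (-2.11 ± 0.11) and was as low in su(Hw)A2663/v (8.27). Of 69 tested mitochondrial ribosomal protein genes with the mRp prefix, 64 had a negative difference, with a median of -0.25, against 3381 of 5987 and -0.057 over all tested genes, and 1 was called: mRpS18A fell from 11.77, 11.80 and 11.67 to 10.71, 10.62 and 10.68, while its mean in su(Hw)A2663/v was 11.70. Of 14 mitochondrial aminoacyl-tRNA synthetases MetRS-m and ProRS-m fell, by 1.08 and 1.05. ProRS-m was not called when mutant replicates 1 and 2 were left out together. These families were chosen after their values were seen. Genes with no name other than a CG number made up 1866 of those tested, and 5.36% of them were called higher and 4.72% lower, against 4.03% and 3.07% of all genes.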
